A study of Mus musculus with 12 samples.

Results

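The genes described here are those of the mitochondrial respiratory chain and ATP synthase, taken by symbol from a table of read counts from mouse stromal cell preparations. All genes named mt-Nd, mt-Co, mt-Cytb or mt-Atp were taken as mitochondrially encoded members, and all genes named Ndufa, Ndufb, Ndufc, Ndufs, Ndufv, Uqcr, Cox4 to Cox8 or Atp5 as nuclear-encoded members, without pseudogenes. The rule found 108 members among 53819 entries, 13 mitochondrially encoded and 95 nuclear-encoded, and 94 members (7 and 87) had enough counts to be tested among 15698 tested genes. RNA was sequenced from 12 libraries, 3 in each of 4 groups, all from wild-type (WT) mice, whose age the labels do not state. BM sorted cells were bone marrow stromal cells from hind limbs and pelvis, grown on collagen-I to the first passage and flow sorted as cells without CD31, CD45, Ly6C and F4/80 that carried CD51 and Sca-1. BM nonsorted cells were the same kind of culture, used without the sort. BAC depleted cells were bone-associated stromal cells, freed from hind-limb bone fragments by collagenase-I and depleted with magnetic beads of cells bearing CD45, Ly6C or F4/80. BAC nondepleted cells were the same digest without depletion. The growth protocol on all labels names alpha MEM lacking ascorbic acid and hypoxia, and the sources used here do not give the culture time of the bone-associated cells. The labels number the libraries but do not say whether they came from separate animals or cultures. Each p-value therefore measures the spread between these libraries, which may be technical. The exception is BAC depleted library 1, whose sex-linked transcripts differed from those of libraries 2 and 3 of its group.

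Oxidative phosphorylation is run by complexes I to V of the inner mitochondrial membrane. Complex I takes electrons from NADH and complex II from succinate, complex III passes them to cytochrome c, complex IV reduces oxygen, and complex V uses the proton gradient to make ATP. Complexes I, III, IV and V are built from products of both genomes: mitochondrial DNA encodes core subunits and is transcribed inside the organelle as long transcripts that are cut into separate RNAs, whereas the nuclear-encoded subunits are transcribed one by one in the nucleus, translated in the cytosol and imported. In many cells the nuclear-encoded genes carry binding sites of NRF1 and of ETS factors such as GABP in their promoters, and some complex IV subunits have isoforms used in muscle, in testis or at low oxygen.

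Of the 13 mitochondrially encoded genes, 7 received counts in quantity and 6 did not. mt-Nd1, mt-Nd2, mt-Nd4, mt-Nd5 and mt-Nd6 of complex I, mt-Cytb of complex III and mt-Co1 of complex IV passed the count filter. mt-Co2 and mt-Co3 of complex IV, mt-Atp6 and mt-Atp8 of complex V and mt-Nd4l of complex I were listed at 0 in all 12 libraries, and mt-Nd3 of complex I had 23 counts in all libraries together and at most 4 in 1 library. In the GENCODE M21 transcripts (GRCm38, an older build than the GRCm39 named in the submitters' processing notes), 5 of these 6 genes share almost their whole sequence with unprocessed pseudogenes on chromosome 1. Exact matches to another gene covered 99.5% of all 100-base windows of mt-Co2 (with Gm28661), 99.5% of mt-Atp6 (Gm10925), 99.9% of mt-Co3 (Gm28437), 97.6% of mt-Nd3 (Gm28438) and 98.5% of mt-Nd4l (Gm10222). mt-Atp8 shared no window with an annotated transcript of another gene, but 21.1% of its bases overlap mt-Atp6. Only annotated transcripts were searched, so a copy outside them would not have been seen. mt-Nd4 shared 60.8% of its windows (with Gm28439) and mt-Co1 30.8%, mt-Nd2 shared 3.19%, and mt-Nd1, mt-Nd5, mt-Nd6 and mt-Cytb shared none. The nuclear copies had 0 to 13 counts each over all libraries. A stretch of mt-Nd3, bases 4 to 123 of the gene, is shown against its copy, and a stretch of mt-Co1, bases 1063 to 1182, against its copy, because the first pair is identical in every base and the second holds the only mismatch of the 483 aligned bases, in capitals (A1066T, gene base first, counted from the first base of mt-Co1).
mt-Nd3: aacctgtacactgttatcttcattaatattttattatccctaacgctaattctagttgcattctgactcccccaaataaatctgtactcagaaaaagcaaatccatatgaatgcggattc
Gm28438: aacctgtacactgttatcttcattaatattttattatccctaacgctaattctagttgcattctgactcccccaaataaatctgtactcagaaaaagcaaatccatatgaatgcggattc
mt-Co1: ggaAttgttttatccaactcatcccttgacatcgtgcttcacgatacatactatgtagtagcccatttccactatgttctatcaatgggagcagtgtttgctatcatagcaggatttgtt
Gm29216: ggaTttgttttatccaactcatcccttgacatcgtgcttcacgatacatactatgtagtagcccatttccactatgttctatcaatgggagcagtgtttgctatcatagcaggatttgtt
A read that lies in the identical stretch carries no base that tells the mitochondrial gene from its copy. The sources used here do not say how reads matching several places were counted, and the part of the shared sequence in the 0 counts was not tested. Sums over mitochondrially encoded genes therefore rest on 7 genes and the few counts of mt-Nd3, and the values of mt-Nd4 and mt-Co1 are uncertain because part of their sequence is shared.

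**Figure D1:**
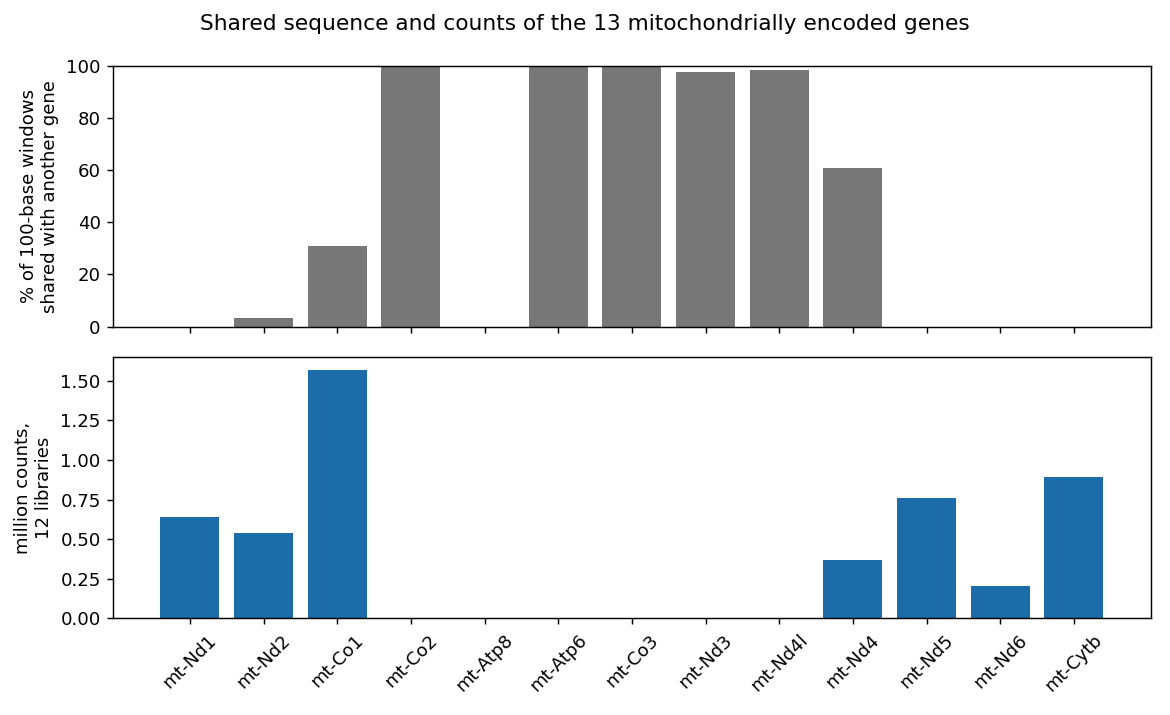
Upper panel, percentage of all 100-base windows of each mitochondrially encoded gene found in another gene of the GENCODE M21 transcripts. Lower panel, counts summed over the 12 libraries. mt-Co2, mt-Atp6, mt-Co3, mt-Nd3 and mt-Nd4l share 97.6% to 99.9% of their windows and have 0 to 23 counts, and mt-Atp8 shares none and has 0.

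The libraries held 27937709 to 32164725 counts. Levels are given in CPM, counts per 1e6 counts of a library after TMM normalisation. BAC depleted library 1 stood apart from the other 11 in carrying 43406 counts of Xist and 0 of Ddx3y. The others had at most 16 of Xist and at least 2484 of Ddx3y. This is a female pattern in library 1 and a male pattern in the other 11, although the labels give no sex. The sexes were thus mixed within the BAC depleted group, whose 3 libraries cannot all come from 1 animal. Thbs1 took 8.11% of the counts of BAC depleted library 3. The 7 stromal markers were detected in every group, and summed macrophage markers (10 genes) lay at 11.03 to 44.3 CPM in BM sorted and 12.5 to 64.6 CPM in BAC depleted libraries, with Ptprc, C1qa, C1qb and Tyrobp at 0 in all BAC depleted libraries, against 4685 to 5302 CPM in BM nonsorted and 12090 to 13640 CPM in BAC nondepleted libraries. A gene is called where edgeR's quasi-likelihood test gave a Benjamini-Hochberg adjusted p under 0.05 over all tested genes. In bulk RNA, fewer cells of a type and less RNA per cell cannot be told apart.

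Summed mitochondrially encoded members, which leave out ribosomal and transfer RNAs, were highest in the BAC depleted cells, where summed nuclear-encoded members were lowest. Mitochondrially encoded members took 2.54%, 1.97% and 1.74% of all counts in BAC depleted libraries 1 to 3, against 1.10%, 1.14% and 1.23% in BAC nondepleted libraries. In BM sorted libraries they took 1.02%, 1.16% and 1.07%, against 1.31%, 1.26% and 1.04% in BM nonsorted libraries. Each of the BAC depleted libraries was above the other 9. Nuclear-encoded members took 0.404%, 0.398% and 0.359% of counts in BAC depleted libraries, against 0.508%, 0.482% and 0.464% in BAC nondepleted libraries. They took 0.537%, 0.521% and 0.564% in BM sorted libraries, against 0.506%, 0.523% and 0.556% in BM nonsorted libraries. Here each BAC depleted library was below the other 9.

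The ratio of mitochondrially to nuclear-encoded counts does not depend on how libraries are scaled. It was 6.30, 4.96 and 4.84 in BAC depleted libraries (mean 5.36 ± 0.811, SD, n = 3), against 2.16, 2.37 and 2.66 in BAC nondepleted libraries (2.40 ± 0.248, n = 3). In BM sorted libraries it was 1.90, 2.23 and 1.90 (2.01 ± 0.192, n = 3), against 2.58, 2.41 and 1.87 in BM nonsorted libraries (2.29 ± 0.372, n = 3). BAC depleted libraries did not overlap any other group, while BM sorted and BM nonsorted libraries overlapped. On the log2 scale the ratio differed by 1.16 between BAC depleted and BAC nondepleted cells, by -0.18 between BM sorted and BM nonsorted cells, by -1.41 between BM sorted and BAC depleted cells and by -0.07 between BM nonsorted and BAC nondepleted cells. These are descriptions of summed members and carry no test. Without BAC depleted library 1, the library with the highest ratio, the differences that involve its group were 1.04 and -1.29.

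**Figure D2:**
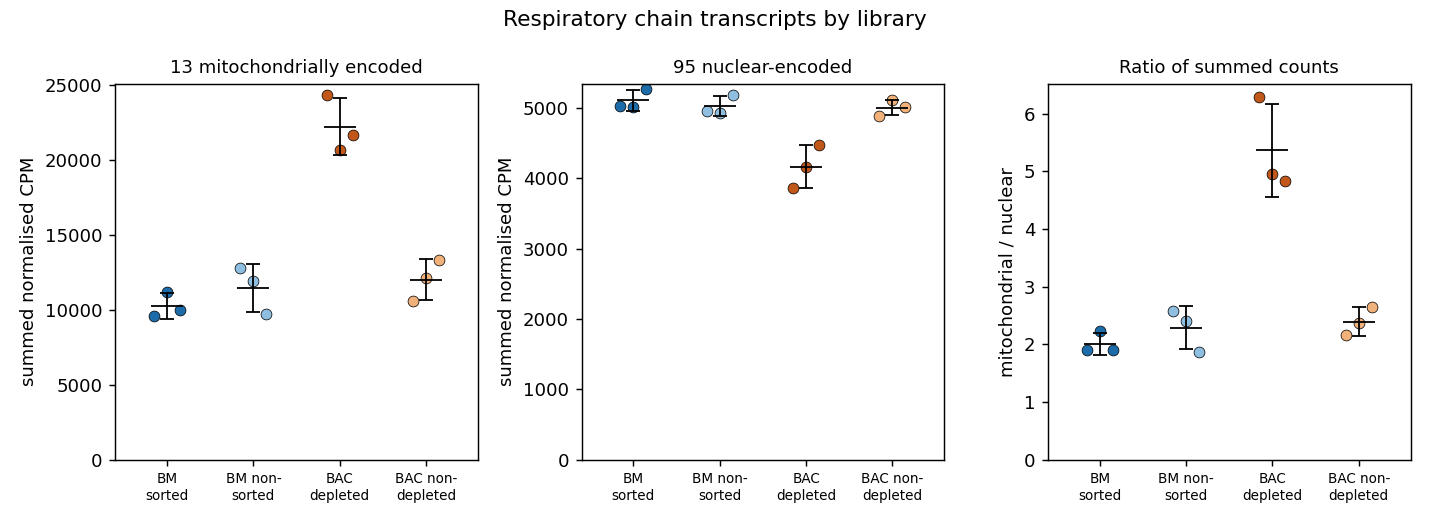
Summed normalised CPM of the 13 mitochondrially encoded members (left), of the 95 nuclear-encoded members (middle), and the ratio of their summed counts (right), by group. Points are libraries, and bars give mean and SD (n = 3). The BAC depleted ratio lies at 4.84 to 6.30 and all other libraries at 1.87 to 2.66.

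All 7 tested mitochondrially encoded genes rose in BAC depleted cells relative to BAC nondepleted cells, with a median log2 fold change of 0.92 against 0.05 over all tested genes, where 37.3% of all tested genes were called in that comparison (17.4% higher and 19.9% lower). In none of the 7 did the libraries of the 2 groups overlap, the depleted ones being higher, as they were in 21.4% of all tested genes (46.3% in either direction). Being cut from long transcripts, the 7 genes are not separate observations, here or in the comparisons below. mt-Nd2, a membrane-arm subunit of complex I, had 3487, 2785 and 2755 CPM in BAC depleted libraries, against 1057, 1170 and 1284 CPM in BAC nondepleted libraries. All depleted libraries were above all nondepleted ones, and the log2 fold change was 1.36 ± 0.14 (SE, adjusted p = 6.07e-05). mt-Nd4, another membrane-arm subunit, had 2225, 1564 and 1547 CPM in BAC depleted libraries, against 680.0, 809.8 and 942.2 CPM in BAC nondepleted libraries (log2 fold change 1.13 ± 0.22, adjusted p = 0.00301). mt-Cytb, the cytochrome b of complex III, had 5167, 3489 and 3349 CPM in BAC depleted libraries, against 1593, 1789 and 2207 CPM in BAC nondepleted libraries (1.10 ± 0.24, adjusted p = 0.00571). In these genes BAC depleted library 1 was the highest of its group, and the groups did not overlap. mt-Nd5 rose by 0.92 ± 0.19, mt-Nd6 by 0.91 ± 0.16 and mt-Nd1 by 0.81 ± 0.14 on the log2 scale, with adjusted p = 0.00348, 0.00159 and 0.00125. mt-Co1, the catalytic subunit of complex IV, had the smallest change. It had 6823, 5930 and 6972 CPM in BAC depleted libraries, against 3960, 4593 and 4736 CPM in BAC nondepleted libraries (0.57 ± 0.17, adjusted p = 0.0247). The call of mt-Co1 was lost without BAC nondepleted library 1 (0.49, adjusted p = 0.0925) or library 2 (0.59, adjusted p = 0.0636) and when only these 2 groups were fitted (0.59, adjusted p = 0.142).

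Within the 7 genes the increase was unequal. The ratio of mt-Nd2 to mt-Co1 counts was 0.395 to 0.511 in BAC depleted libraries, against 0.255 to 0.271 in BAC nondepleted libraries, without overlap, and the ratio of mt-Cytb to mt-Co1 counts was 0.480 to 0.757 against 0.390 to 0.466. The ratio of mt-Nd6 to mt-Nd5 counts moved little, at 0.261 to 0.280 over all 12 libraries. mt-Nd6 is the only subunit gene on the opposite strand of mitochondrial DNA and lies beside the end of mt-Nd5 with 2.7% of its bases overlapping it, and the sources used here do not give the strand setting of the counting, so reads antisense to mt-Nd6 cannot be told apart from its own.

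**Figure D3:**
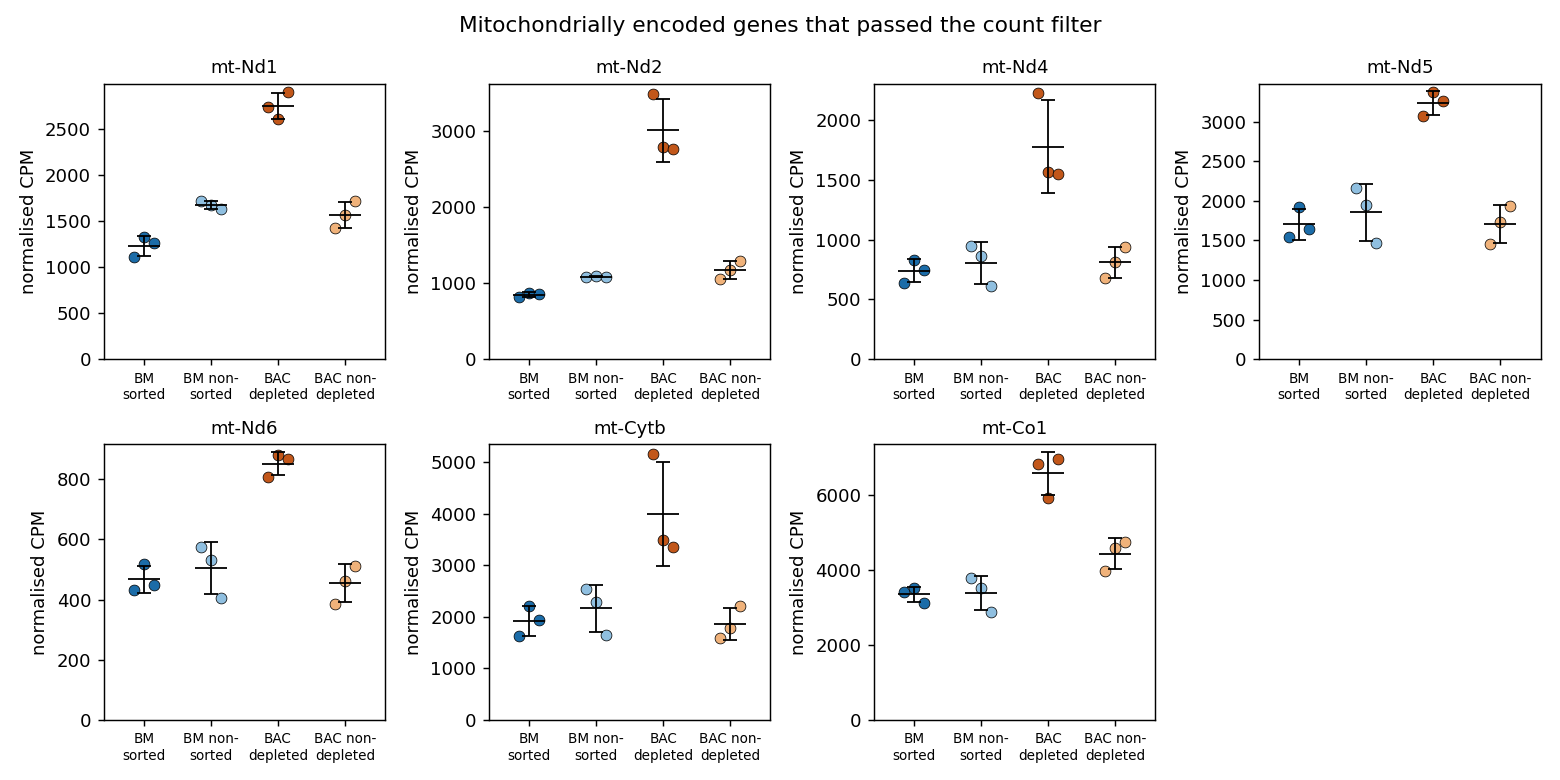
Normalised CPM of the 7 mitochondrially encoded genes that passed the count filter, by group. Points are libraries, and bars give mean and SD (n = 3). In each panel all 3 BAC depleted points lie above all other libraries. For mt-Nd1 and mt-Nd2 all BM sorted points also lie below all BM nonsorted points.

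In marrow, sorting was not followed by a called change in these genes. edgeR's quasi-likelihood test called 0 of 7 in BM sorted against BM nonsorted cells (6.23% of all tested genes were called), and 2 of 7, both lower, had an unadjusted p under 0.05, as many as DESeq2 called. mt-Nd2 had 812.1, 872.9 and 848.5 CPM in BM sorted libraries, against 1081, 1098 and 1075 CPM in BM nonsorted libraries, and mt-Nd1 had 1107, 1322 and 1262 CPM against 1720, 1672 and 1624 CPM. Both genes were lower in every sorted library, with log2 fold changes of -0.36 ± 0.14 (adjusted p = 0.237) and -0.44 ± 0.14 (adjusted p = 0.106). The other 5 differed by -0.17 to -0.02 on the log2 scale with overlapping libraries. The change with sorting and the change with depletion were compared directly by an interaction term, in which 8.06% of all tested genes were called (5.08% above and 2.99% below 0). For 6 of 7 mitochondrially encoded genes the 2 changes differed, with the sorting change below the depletion change. The difference was -1.72 ± 0.20 for mt-Nd2 (adjusted p = 0.00224), -1.25 ± 0.19 for mt-Nd1 (adjusted p = 0.0062) and -1.27 ± 0.34 for mt-Cytb (adjusted p = 0.0481), and for mt-Co1 it was -0.59 ± 0.24 (adjusted p = 0.159). This count fell to 2 or 3 when any BM sorted library, BM nonsorted library 1 or 2, or BAC nondepleted library 1 or 2 was left out, and mt-Nd1 and mt-Nd2 passed in every alternative run.

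Between the purified populations all 7 fell in BM sorted cells relative to BAC depleted cells, with a median log2 fold change of -1.06 against -0.02 over all tested genes, where 47.4% of all tested genes were called (22.9% higher, 24.6% lower). All 7 were lower in every sorted library, as 26.4% of all tested genes were (52.8% did not overlap in either direction). mt-Nd2 differed most, at -1.83 ± 0.15 (adjusted p = 3.09e-05), and mt-Nd6 least, at -0.87 ± 0.16 (adjusted p = 0.0016). All 7 calls held without any single library. The same BAC depleted libraries enter this comparison and the one against BAC nondepleted cells. Between the unpurified populations, BM nonsorted and BAC nondepleted, edgeR called 0 of 7 (31.7% of all tested genes were called), 1 had an unadjusted p under 0.05, and DESeq2 called 1. The log2 fold changes ran between -0.39 (mt-Co1, adjusted p = 0.108) and 0.22 (mt-Cytb, adjusted p = 0.521).

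Among nuclear-encoded members more fell than rose in BAC depleted cells. Of 87 tested, 2 rose and 29 fell relative to BAC nondepleted cells. The share called in either direction, 35.6%, was near the 37.3% of all tested genes and is no result about the members. By direction, 33.3% of members fell, against 19.9% of all tested genes, and 2.30% rose, against 17.4%. Their median log2 fold change was -0.21. By complex, 8 of 37 fell in complex I (21.6%), 4 of 8 in complex III (50%), 8 of 17 in complex IV (47.1%) and 9 of 17 in complex V (52.9%). The complex I share was near the 19.9% of all tested genes and is no result about that complex. The 2 that rose were 1 of 8 complex I assembly factors and 1 of 17 in complex IV. In 42 of 87 all depleted libraries lay below all nondepleted ones (24.9% of all tested genes) and in 5 above (21.4%). Summed over complex V, levels were 1449 ± 105 CPM in BAC depleted and 1843 ± 15.7 CPM in BAC nondepleted libraries, and over complex I subunits 1133 ± 27.7 CPM and 1266 ± 24.4 CPM (mean ± SD, n = 3 each). All 17 members of complex V and all 8 of complex III had negative fold changes, including those not called. The 29 became 16 without BAC nondepleted library 2, 20 without BAC depleted library 1 and 11 when only these 2 groups were fitted.

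In complex I, Ndufa10, an accessory subunit of the membrane arm, had 41.2, 42.1 and 39.6 CPM in BAC depleted libraries, against 58.5, 59.5 and 54.3 CPM in BAC nondepleted libraries. The groups did not overlap, and the log2 fold change was -0.49 ± 0.08 (adjusted p = 0.000744). Ndufb5, another accessory subunit, had 26.1, 26.7 and 29.9 CPM against 39.2, 41.0 and 36.2 CPM (-0.49 ± 0.09, adjusted p = 0.00153), and 12.3% of its exon bases overlap Mrpl47 in the annotation. Ndufs1, the largest iron-sulfur core subunit, was lower with a log2 fold change of -0.30 (adjusted p = 0.0186). The 29 complex I members that were not called ranged up to 0.31 (Ndufs4, adjusted p = 0.058). Ndufaf7, a methyltransferase needed for complex I assembly, was the assembly factor that rose, with 26.6, 21.7 and 24.6 CPM in BAC depleted libraries, against 15.5, 13.99 and 16.7 CPM in BAC nondepleted libraries (0.66 ± 0.11, adjusted p = 0.000946).

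In complex III, Uqcrfs1, the Rieske iron-sulfur protein, had 23.6, 35.4 and 31.2 CPM in BAC depleted libraries, against 49.7, 52.2 and 47.1 CPM in BAC nondepleted libraries. No depleted library reached a nondepleted one (-0.72 ± 0.13, adjusted p = 0.00163). Uqcrb, Uqcrc1 and Uqcrc2 also fell, with log2 fold changes of -0.36, -0.34 and -0.30 and adjusted p = 0.0136, 0.0171 and 0.042. Uqcrc2 is uncertain, since 19.7% of its exon bases overlap Pdzd9. Uqcrh, a hinge protein, was called in none of the comparisons and had 89.1, 97.1 and 147.5 CPM in BAC depleted libraries, against 110.7, 123.0 and 104.6 CPM in BAC nondepleted libraries.

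In complex IV, Cox5a, a subunit on the matrix side, had 8.87, 11.7 and 12.4 CPM in BAC depleted libraries, against 20.1, 18.9 and 20.0 CPM in BAC nondepleted libraries. It had the most negative fold change of all nuclear-encoded members in this comparison (-0.84 ± 0.16, adjusted p = 0.00227), and 12.8% of its exon bases overlap Gm26631. Cox4i1, the common isoform of the largest nuclear-encoded subunit, had 112.4, 135.0 and 142.3 CPM against 196.2, 197.4 and 182.4 CPM (-0.56 ± 0.10, adjusted p = 0.00144). Cox7a2l, which joins complexes III and IV into supercomplexes, had 62.6, 50.5 and 66.9 CPM against 102.0, 88.5 and 76.7 CPM (-0.57 ± 0.13, adjusted p = 0.00779). In each of these genes the depleted libraries were all below the nondepleted ones.

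In complex V, Atp5c1, the gamma subunit of the rotating stalk, had 102.1, 97.5 and 127.9 CPM in BAC depleted libraries, against 160.1, 161.4 and 153.0 CPM in BAC nondepleted libraries (-0.53 ± 0.15, adjusted p = 0.0203). That call was lost without BAC depleted library 1 or 2 or BAC nondepleted library 1 or 2, at adjusted p = 0.0526 to 0.0587. Atp5g2, one of the genes for the membrane ring subunit c, had 8.14, 8.73 and 10.3 CPM against 14.6, 15.7 and 11.97 CPM (-0.64 ± 0.15, adjusted p = 0.00741). The catalytic subunits differed in their calls: Atp5a1 (alpha) had -0.33 (log2 fold change, adjusted p = 0.0183), and Atp5b (beta) had -0.38 (adjusted p = 0.0717).

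Other cells and states differed between the same libraries. All 10 macrophage markers and all 6 mitosis markers fell with depletion, the mitosis sum lying at 20.3 to 90.8 CPM in BAC depleted and 296.5 to 359.7 CPM in BAC nondepleted libraries. Of 6 dissociation and stress genes 1 rose, their sum lying at 588.8, 5873 and 6809 CPM in BAC depleted libraries, against 2518 to 4175 CPM in BAC nondepleted libraries. Of the 3 tested adipocyte markers Adipoq and Plin1 rose (adjusted p = 0.0201 and 0.0413), with 1519, 107 and 8 counts of Adipoq and 630, 160 and 2 of Plin1 in BAC depleted libraries, against 1 count of Adipoq in each and 1 to 2 of Plin1 in BAC nondepleted libraries. The adipocyte sum of 134.9, 19.9 and 2.29 CPM in BAC depleted libraries overlapped the 6.41 to 44.5 CPM in BAC nondepleted libraries. BAC depleted library 1 was the highest in both genes and also in the ratio of mitochondrially to nuclear-encoded counts, at 6.30 against 4.96 and 4.84 in BAC depleted libraries 2 and 3. The same library stood apart in Xist and Ddx3y and had the lowest dissociation and stress sum of its group. These traits cannot be told apart in 1 library. Without BAC depleted library 1, 7 of 7 mitochondrially encoded members rose, and the log2 ratio differed by 1.04 between BAC depleted and BAC nondepleted cells, against 1.16 with it. Of the 3 tested endothelial markers Tek rose (8, 142 and 6 counts in BAC depleted libraries, against 0 to 2 in BAC nondepleted libraries, adjusted p = 0.0135) and Kdr fell (0 to 2 counts against 100 to 217, adjusted p = 1.73e-05), and the endothelial sum was 0.292 to 5.83 CPM in BAC depleted and 4.19 to 8.32 CPM in BAC nondepleted libraries. Of the 7 stromal markers Cxcl12 and Pdgfrb rose (3.29, adjusted p = 0.00413, and 1.27, adjusted p = 0.0123) and Col1a1 fell (-1.69, adjusted p = 0.00281), the stromal sum lying at 25780 to 29260 CPM in BAC depleted and 24380 to 44290 CPM in BAC nondepleted libraries. Of the 4 tested skeletal muscle markers edgeR called 0 (adjusted p = 0.337 to 0.828, and 0 with an unadjusted p under 0.05). The part of these cells and states in the changes of the respiratory chain genes was not tested. With sorting in marrow 9 of 10 macrophage markers also fell. Their mean sum was 4929 CPM in BM nonsorted and 12770 CPM in BAC nondepleted libraries. For the sorting comparison edgeR called 0 of 7 mitochondrially encoded genes and 0 of 6 mitosis markers, while DESeq2 called 2 mitochondrially encoded genes lower. The part of macrophages or mitosis in this difference between marrow and bone was not tested.

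Relative to BAC depleted cells, BM sorted cells had higher levels of most nuclear-encoded members. Of 87 tested, 48 rose and 7 fell, that is 55.2% and 8.05%, against 22.9% and 24.6% of all tested genes, and the median log2 fold change was 0.31. In 54 of 87 all sorted marrow libraries were above all depleted bone libraries (26.4% of all tested genes) and in 8 below (26.4%). By complex, 18 rose and 2 fell of 37 in complex I, 2 and 2 of 8 assembly factors, 10 and 2 of 17 in complex IV, and 13 and 1 of 17 in complex V, while 5 of 8 in complex III rose. Between these libraries all 6 mitosis markers rose and all 6 dissociation and stress genes fell, with sums of 445.8 to 612.1 CPM and 191.6 to 273.2 CPM in BM sorted libraries, against 20.3 to 90.8 CPM and 588.8 to 6809 CPM in BAC depleted libraries, and their part in the members' changes was not tested. Of the 7 stromal markers Col1a1, Col1a2 and Itgav rose and Pdgfra fell between the same libraries, 2 of 10 macrophage markers rose and 3 fell, and edgeR called 0 of 3 adipocyte and 0 of 3 endothelial markers (adjusted p = 0.104 to 0.846, and 0 with an unadjusted p under 0.05). The number that rose was 34 to 49 when each library was left out in turn, 38 without BAC depleted library 1, and 31 when only these 2 groups were fitted, whereas the number that fell was 2 without BM sorted library 2 and 3 without BM sorted library 3.

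Atp5b, the most abundant nuclear-encoded member in counts, had 549.9, 677.2 and 730.6 CPM in BM sorted libraries, against 291.6, 415.4 and 362.1 CPM in BAC depleted libraries (0.87 ± 0.15, adjusted p = 0.00125). Atp5d, the delta subunit of the central stalk, had 90.3, 88.5 and 91.3 CPM against 51.4, 59.4 and 53.0 CPM (0.72 ± 0.09, adjusted p = 0.000192). For both genes every sorted marrow library was above every depleted bone library. In complex III, Uqcrq, a small subunit bound to cytochrome b, had 32.6, 45.1 and 41.5 CPM in BM sorted libraries, against 16.3, 28.1 and 19.3 CPM in BAC depleted libraries (0.90 ± 0.20, adjusted p = 0.0048), and Uqcrfs1 rose by 0.70 ± 0.13 (adjusted p = 0.00159). In complex I, Ndufa9, which links the matrix and membrane arms, had 53.9, 45.5 and 49.4 CPM against 27.8, 35.3 and 31.2 CPM (0.66 ± 0.11, adjusted p = 0.000829), again without overlap. Ndufb6 had a similar fold change (0.67 ± 0.15, adjusted p = 0.00491), but 39% of its exon bases overlap Smim27.

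Few members went against this direction. Ndufaf3, an early complex I assembly factor, had 6.28, 5.69 and 5.18 CPM in BM sorted libraries, against 10.97, 10.6 and 11.25 CPM in BAC depleted libraries (-0.94 ± 0.15, adjusted p = 0.00076), and Ndufaf8, another assembly factor, had 4.26, 3.44 and 4.35 CPM against 6.01, 6.33 and 6.87 CPM (-0.67 ± 0.20, adjusted p = 0.0179). Neither gene overlapped between the groups, although Ndufaf8 lost its call without BM sorted library 2 (adjusted p = 0.0707). Ndufs7, an iron-sulfur core subunit of complex I, was at -0.31 (adjusted p = 0.0168) and Ndufb11, an X-linked accessory subunit, at -0.31 (adjusted p = 0.0413). Ndufs7 lost its call without BM sorted library 2 or 3, and Ndufb11 without any 1 of 9 libraries. Atp5l, a complex V subunit named g, had -0.60 (adjusted p = 0.0234) at 2.05 to 2.55 CPM in BM sorted libraries, against 3.08 to 3.62 CPM in BAC depleted libraries. The assembly factors that rose were Ndufaf4 (0.66, adjusted p = 0.0295) and Ndufaf2 (0.34, adjusted p = 0.0395). Ndufaf4 lost its call without BM sorted library 2 or 3 or any BAC depleted library, and Ndufaf2 without any 1 of 8 libraries, and 65.6% of the exon bases of Ndufaf2 overlap B230220B15Rik.

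**Figure D4:**
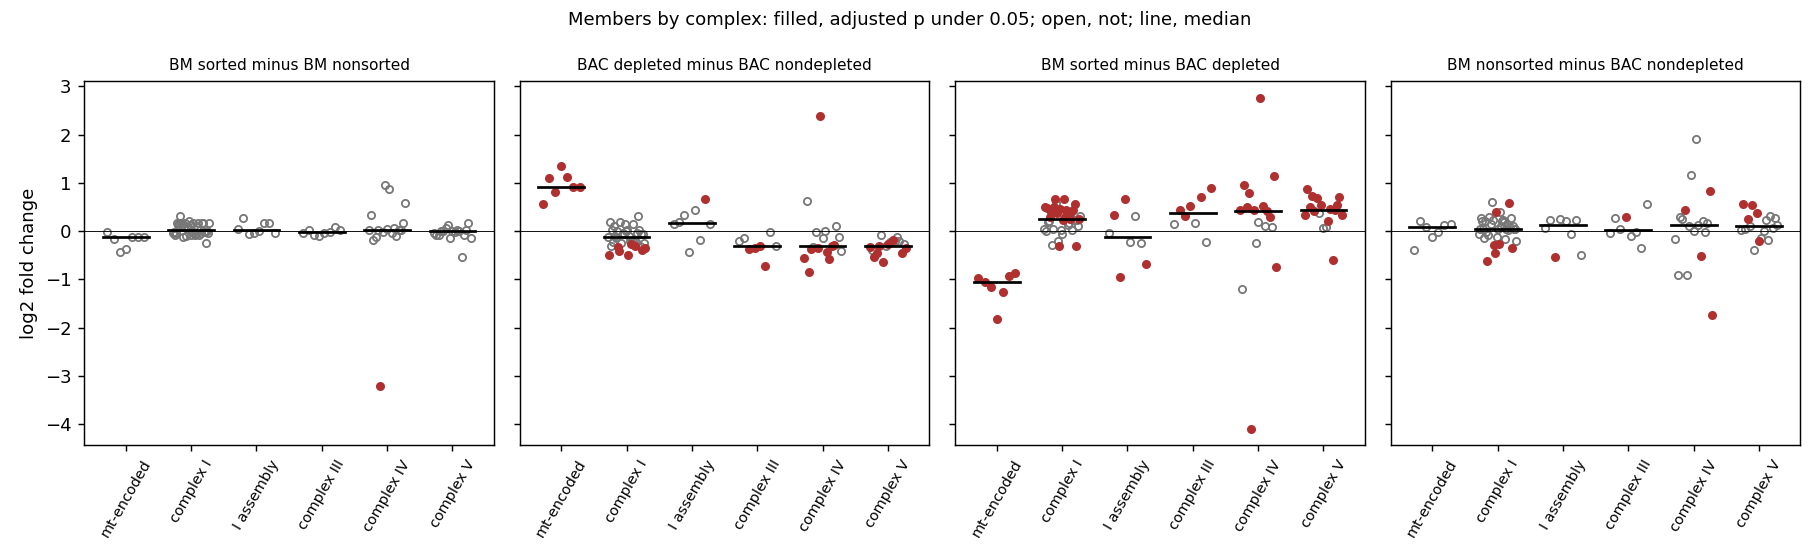
Log2 fold changes of the tested members, by complex, in the 4 comparisons of groups. Filled points had an adjusted p under 0.05 in edgeR's quasi-likelihood test, open points did not, and lines are medians. Mitochondrially encoded members have a median of 0.92 in BAC depleted minus BAC nondepleted and nuclear-encoded members one of -0.21, and in BM sorted minus BAC depleted the medians are -1.06 and 0.31.

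Sorting of marrow cells was accompanied by 1 call among 87 nuclear-encoded members, against 6.23% of all tested genes (0.166% higher and 6.06% lower). The libraries of the 2 groups did not overlap in 9 members that were higher and 5 that were lower in BM sorted cells, against 12.1% and 16.7% of all tested genes (28.7% in either direction). The called member was Cox6a2, the heart and muscle isoform of complex IV subunit 6a, with 3 counts in the 3 BM sorted libraries together and 31 in the BM nonsorted libraries. The ratio of these sums per library size was 0.0991 (95% interval 0.0194 to 0.318, counting error only). It was 0.0507 without BM sorted library 2 and 0.144 without BM sorted library 1. The fitted difference had an adjusted p of 0.0243 by edgeR. The call was lost without BM sorted library 1 or 3 and without BM nonsorted library 1 or 2, at adjusted p = 0.0744 to 0.105. Of the exon bases of Cox6a2, 10.3% overlap Itgad, so its counts are uncertain. Summed skeletal muscle markers were 21.7 to 58.6 CPM in BM sorted and 25.8 to 190.6 CPM in BM nonsorted libraries. The part of these markers or of the overlap in the Cox6a2 counts was not tested. No nuclear-encoded member rose by edgeR, 3 of 87 had a positive fold change with an unadjusted p under 0.05, and DESeq2 called 0 higher and 1 lower. The most abundant members by counts in complex III, among the complex I assembly factors and in complex V were not called, with log2 fold changes of 0.09 for Uqcrh, 0.16 for Ndufaf7 and -0.07 for Atp5b (adjusted p = 0.562 to 0.914).

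Between BM nonsorted and BAC nondepleted cells 9 nuclear-encoded members rose and 9 fell of 87, 20.7% against 31.7% of all tested genes (14.9% higher and 16.8% lower), with a median log2 fold change of 0.09. Libraries did not overlap in 32 members that were higher in BM nonsorted cells and in 14 that were lower, against 27.3% and 28.7% of all tested genes (56% in either direction). Atp5b rose by 0.56 ± 0.15 (adjusted p = 0.0197), with 734.8, 657.2 and 666.2 CPM in BM nonsorted libraries, against 447.8, 462.4 and 484.9 CPM in BAC nondepleted libraries. Atp5g1, another gene for subunit c, rose by 0.55 ± 0.09 (adjusted p = 0.00243), and Ndufs4, an accessory subunit near the NADH-oxidising module, rose by 0.58 ± 0.11 (adjusted p = 0.00503). Ndufa6, an accessory subunit of the matrix arm, fell by 0.62 ± 0.15 (adjusted p = 0.0113), and Ndufaf3 fell by 0.53 ± 0.15 (adjusted p = 0.0225). Calls that rested on a few libraries were those of Atp5b, lost without BM nonsorted library 1 or 2 or BAC nondepleted library 1 or 2 (adjusted p = 0.0507 to 0.069), and of Ndufaf3, lost without BM nonsorted library 1 or 2 or BAC nondepleted library 2 (adjusted p = 0.079 to 0.0942). Further members that rose were Ndufb2 (0.39, adjusted p = 0.0391), Uqcrc1 (0.29, adjusted p = 0.042) and Cox6a1 (0.43, adjusted p = 0.0362), and further members that fell were Ndufb11 (-0.45, adjusted p = 0.0123), Cox7a2l (-0.52, adjusted p = 0.0151) and Atp5h (-0.21, adjusted p = 0.0434). Each of these 6 lost its call without at least 1 single library. These counts were unsteady: the number that rose was 18 without BAC depleted library 1, 3 without BAC nondepleted library 1 and 4 without BM sorted library 2, any BM nonsorted library or BAC nondepleted library 2. The number that fell was 3 or 4 without BM nonsorted library 1 or 2 or BAC nondepleted library 1 or 2. In the direct comparison of the sorting change with the depletion change, 5 of 87 nuclear-encoded members were called with the sorting change above the depletion change. This share, 5.75%, was near the 5.08% of all tested genes called in that direction and is no result about the members. They were Atp5g2 (0.76 ± 0.21, adjusted p = 0.0495), Uqcrfs1 (0.70 ± 0.18, adjusted p = 0.042), Cox4i1 (0.59 ± 0.14, adjusted p = 0.0303), Ndufb5 (0.50 ± 0.12, adjusted p = 0.0344) and Ndufa10 (0.47 ± 0.11, adjusted p = 0.0276). By edgeR 0 were called in the other direction (2.99% of all tested genes), 2 had an unadjusted p under 0.05, and DESeq2 called 2. The 5 became 0 to 2 without any 1 of the BM sorted or BM nonsorted libraries or without BAC nondepleted library 1 or 2, and 8 without BAC depleted library 3.

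Several complex IV subunits have isoforms whose use is restricted, and these are given beside their common counterparts. Ndufa4l2, a paralogue of the complex IV subunit Ndufa4 that hypoxia-inducible factors are known to induce, had 314.8, 194.5 and 180.8 CPM in BM sorted libraries, against 377.0, 274.9 and 503.6 CPM in BAC depleted libraries. The groups overlapped (-0.74 ± 0.25, adjusted p = 0.0335), and the call was lost without BM sorted library 2 or 3 or BAC depleted library 1 or 3, at adjusted p = 0.0564 to 0.128. In BM nonsorted libraries it had 155.3, 173.9 and 133.2 CPM, against 452.8, 540.3 and 536.8 CPM in BAC nondepleted libraries, far apart (-1.73 ± 0.26, adjusted p = 0.0015). Ndufa4 went the other way, with 64.7, 66.2 and 84.4 CPM in BM sorted libraries, against 28.1, 40.6 and 28.7 CPM in BAC depleted libraries (1.14 ± 0.16, adjusted p = 0.000396). It was also higher in BM nonsorted than in BAC nondepleted cells (0.84 ± 0.16, adjusted p = 0.00457). The ratio of Ndufa4l2 to Ndufa4 counts, uncorrected for length, was 2.14 to 4.87 in BM sorted libraries, against 6.77 to 17.6 in BAC depleted libraries, and 2.33 to 2.56 in BM nonsorted libraries, against 12.99 to 15.28 in BAC nondepleted libraries, so marrow and bone libraries did not overlap.

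Cox4i2, the isoform of Cox4i1 known from lung and from cells at low oxygen, was spread widely, with 35.2, 69.7 and 140.7 CPM in BAC depleted libraries, against 33.9, 54.3 and 71.4 CPM in BAC nondepleted libraries (0.62 ± 0.50, adjusted p = 0.349). BM sorted libraries had 40.4, 30.1 and 37.5 CPM (-1.19 ± 0.50 against BAC depleted, adjusted p = 0.0762, and -1.55, adjusted p = 0.0204, without BAC depleted library 1). Cox6b2, known as the testis isoform of Cox6b1, was the nuclear-encoded member with the largest rise in BAC depleted cells, with 46.3, 17.4 and 13.4 CPM, against 6.48, 5.09 and 3.16 CPM in BAC nondepleted libraries. The depleted libraries were all above the nondepleted ones (2.39 ± 0.49, adjusted p = 0.00434), and without BAC depleted library 1 the log2 fold change was 1.65 (adjusted p = 0.00822). BM sorted libraries had 25.6, 19.8 and 19.3 CPM of Cox6b2, against 6.27, 14.4 and 12.6 CPM in BM nonsorted libraries, without overlap but not called (0.96 ± 0.47, adjusted p = 0.392). Cox6b1 itself fell in BAC depleted relative to BAC nondepleted cells (-0.34 ± 0.09, adjusted p = 0.0162), a call lost without BAC nondepleted library 2 (adjusted p = 0.0526).

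Cox7a1, the heart and muscle isoform of Cox7a2, had 10.5, 3.44 and 4.47 CPM in BM sorted libraries, against 0.795, 1.66 and 0.208 CPM in BAC depleted libraries (2.77 ± 0.69, adjusted p = 0.00832). From the summed counts of 574 and 77 the ratio was 6.51 (95% interval 5.13 to 8.38, counting error only), but the libraries varied beyond it: 313 of the 574 counts came from BM sorted library 1, and the BAC depleted libraries held 25, 47 and 5. The ratio was 11.1 without BAC depleted library 2 and 4.3 without BM sorted library 1, and the call held with any 1 library left out. Summed skeletal muscle markers were 21.7 to 58.6 CPM in BM sorted and 6.22 to 20.1 CPM in BAC depleted libraries, and their part in the Cox7a1 counts was not tested. BM sorted library 1 was the highest, and the groups did not overlap. Cox7a2 also rose (0.52 ± 0.10, adjusted p = 0.00233). Cox6a2 had 3 counts in BM sorted libraries and 49 in BAC depleted libraries, a ratio of 0.0535 (0.0107 to 0.166). This ratio was 0.0274 without BM sorted library 2 and 0.0776 without BM sorted library 1. The fitted difference had an adjusted p of 0.00118 by edgeR. The exon overlap of Cox6a2 with Itgad applies here too. Cox6a1, the common counterpart of Cox6a2, was higher in BM sorted than in BAC depleted cells (0.79 ± 0.14, adjusted p = 0.00118). Of the remaining restricted isoforms, Cox7b2 had 5, Cox8b 10 and Cox8c 0 counts in all libraries together, and Cox6c2, Ndufs6b, Ndufa11b, Ndufb4c and Ndufb11b had 0 to 10, all too few to test.

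**Figure D5:**
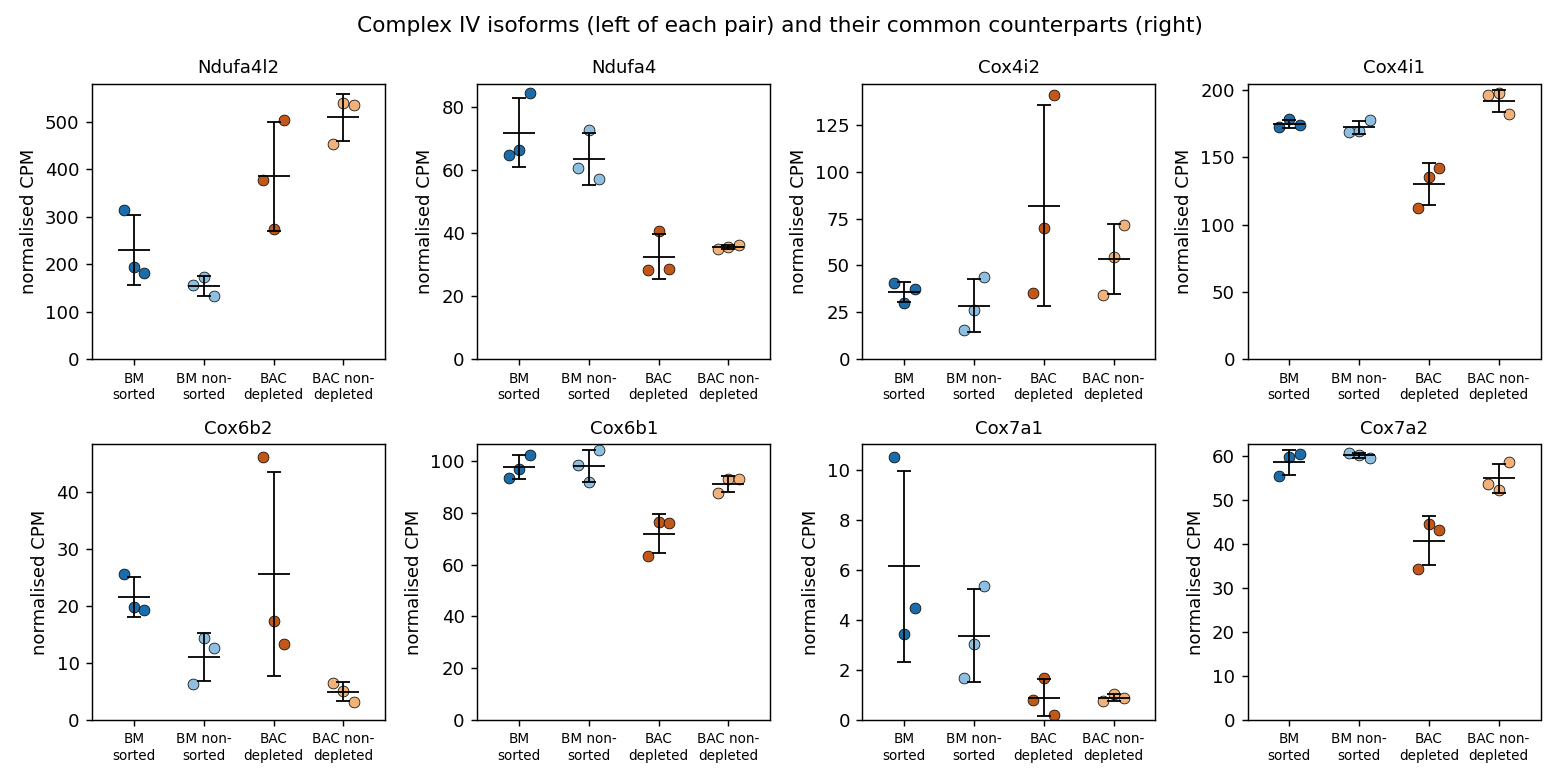
Normalised CPM of 4 restricted isoforms of complex IV, each beside its common counterpart to the right, by group. Points are libraries, and bars give mean and SD (n = 3). Ndufa4l2 is below 320 CPM in all marrow libraries and Ndufa4 above 57, while Cox6b2 reaches 46.3 CPM in BAC depleted library 1.

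Genes outside the rule that serve the same organelle were counted from lists, to be read against the 17.4% of all tested genes that rose and the 19.9% that fell with depletion. In BAC depleted relative to BAC nondepleted cells, complex II, which is wholly nuclear-encoded, had 1 rise and 3 falls among 4 genes: Sdha, the flavoprotein, had 226.6, 246.8 and 216.6 CPM in BAC depleted libraries, against 198.3, 204.2 and 183.6 CPM in BAC nondepleted libraries (0.24 ± 0.08, adjusted p = 0.0491), while Sdhb, the iron-sulfur subunit, had -0.39 ± 0.10 (adjusted p = 0.0123). Of 77 mitochondrial ribosomal proteins 1 rose (1.30%) and 20 fell (26.0%, median -0.20), with Mrps6 at 1.10 ± 0.24 (adjusted p = 0.00563) and Mrpl19 at -0.72 ± 0.13 (adjusted p = 0.002). Of 13 genes of the TCA cycle 3 fell (23.1%, near the share of all tested genes), among them the fumarase gene Fh1 (-0.47 ± 0.09, adjusted p = 0.00297). Among the mitochondrial ribosomal and transfer RNA genes, of which 4 of 24 could be tested, 2 rose, and mt-Rnr2, the large ribosomal RNA, had 546.3, 662.3 and 867.1 CPM in BAC depleted libraries, against 356.1, 447.4 and 437.5 CPM in BAC nondepleted libraries (0.74 ± 0.20, adjusted p = 0.0166). The small ribosomal RNA, mt-Rnr1, was not called (0.25 ± 0.22, adjusted p = 0.39), and neither was mt-Tp (-0.35 ± 0.27, adjusted p = 0.337). Of 14 genes for transcription and replication of mitochondrial DNA 1 rose and 1 fell (7.14% each, below the shares of all tested genes): Mterf3, which binds the mitochondrial promoter region and represses transcription, at 0.65 ± 0.14 (adjusted p = 0.00568), and Lrpprc, which stabilises mitochondrial mRNAs, at -0.33 ± 0.09 (adjusted p = 0.0191). Of 29 assembly factors of complexes I and III to V 3 rose and 3 fell (10.3% each, likewise below), Surf1, needed for complex IV, being at 0.69 ± 0.19 (adjusted p = 0.0157) and Cox15, needed for its heme, at -0.52 ± 0.09 (adjusted p = 0.00145). Of 7 biogenesis regulators 1 rose and 3 fell, among them Nrf1 (-0.39 ± 0.11, adjusted p = 0.016), and of 4 electron carriers 1 rose.

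In BM sorted relative to BAC depleted cells, where 22.9% of all tested genes rose and 24.6% fell, 42 of 77 mitochondrial ribosomal proteins rose (54.5%) and 1 fell (1.30%, median 0.34), and 6 of 13 TCA cycle genes rose (46.2%) and 1 fell (7.69%). The shares that rose were near that of all tested genes for assembly factors, with 8 of 29 (27.6%, and 3 fell), and for transcription and replication of mitochondrial DNA, with 4 of 14 (28.6%, and 1 fell). In the lists of 4 tested genes, 3 electron carriers rose and 1 fell, 1 complex II gene rose and 1 fell, and 2 mitochondrial ribosomal and transfer RNA genes fell. Cs, the citrate synthase, had 192.9, 239.5 and 254.9 CPM in BM sorted libraries, against 95.6, 149.2 and 98.6 CPM in BAC depleted libraries (1.0 ± 0.17, adjusted p = 0.00108), and Cycs, cytochrome c, rose by 1.35 ± 0.29 (adjusted p = 0.00389). Both groups were apart in each gene. Of 7 biogenesis regulators 4 rose and 1 fell, and Pprc1, a coactivator of NRF1, had 51.8, 72.0 and 74.4 CPM against 26.5, 24.4 and 25.4 CPM (1.38 ± 0.14, adjusted p = 8.19e-05). Tmem70, which assembles complex V, rose by 1.17 ± 0.12 (adjusted p = 7.03e-05), and Surf1 had -1.19 ± 0.19 (adjusted p = 0.000712). Of the 152 tested genes of these 8 lists, edgeR and DESeq2 called 0 between BM sorted and BM nonsorted cells. In that comparison edgeR called 6.23% of all tested genes (0.166% higher and 6.06% lower). Of the 152, 10 had an unadjusted p under 0.05 by edgeR.

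Promoters of nuclear-encoded members were read from RefSeq (GRCm38.p6, 250 bases before to 50 after the gene's start), which held 79 promoters for 74 of the 95 genes. The core of the NRF1 site was searched as GCGC and TGCGC with any base between them, and the core of the ETS site as CCGGAAG, each on both strands and separately, so that matches may overlap. The NRF1 core was present in 22.8% of the members' promoters and in 4.6% of 32851 mouse promoters, and the ETS core in 21.5% and 8.86%. Promoters of Cox6a1 (chr5:115348909-115349208, minus strand, with both motifs), Uqcrc1 (chr9:108936398-108936697, plus strand, with the NRF1 core) and Cox5a (chr9:57520982-57521281, plus strand, with neither) are shown because all 3 genes were higher in BM sorted than in BAC depleted cells. Capitals mark the motifs.
Cox6a1: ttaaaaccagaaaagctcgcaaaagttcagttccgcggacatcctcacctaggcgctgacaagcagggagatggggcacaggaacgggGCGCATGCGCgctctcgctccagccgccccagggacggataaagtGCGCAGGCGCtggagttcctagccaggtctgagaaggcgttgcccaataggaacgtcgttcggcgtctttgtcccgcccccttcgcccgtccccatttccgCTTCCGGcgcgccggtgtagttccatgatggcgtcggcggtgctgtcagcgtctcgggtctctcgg
Uqcrc1: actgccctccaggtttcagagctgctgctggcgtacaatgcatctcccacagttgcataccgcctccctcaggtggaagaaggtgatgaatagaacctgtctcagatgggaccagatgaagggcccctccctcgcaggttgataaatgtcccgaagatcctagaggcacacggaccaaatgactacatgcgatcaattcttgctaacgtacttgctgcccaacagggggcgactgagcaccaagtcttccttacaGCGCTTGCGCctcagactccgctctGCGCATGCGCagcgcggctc
Cox5a: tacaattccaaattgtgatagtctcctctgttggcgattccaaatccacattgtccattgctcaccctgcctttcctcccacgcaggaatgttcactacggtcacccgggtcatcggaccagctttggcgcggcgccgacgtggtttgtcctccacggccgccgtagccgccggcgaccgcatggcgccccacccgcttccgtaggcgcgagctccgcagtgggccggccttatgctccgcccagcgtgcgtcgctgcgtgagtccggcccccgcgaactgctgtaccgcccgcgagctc
The log2 fold change of BM sorted over BAC depleted cells was 0.79 for Cox6a1, 0.53 for Uqcrc1 and 0.96 for Cox5a. Among tested members with the NRF1 core, 10 of 17 rose (58.8%) and 0 fell in that comparison (median 0.46), and among those without it 30 of 55 rose (54.5%) and 5 fell (9.09%, median 0.29), against 22.9% and 24.6% of all tested genes. In BAC depleted relative to BAC nondepleted cells, 5 of 17 with the core fell (29.4%, median -0.27), and 2 rose (3.64%) and 18 fell (32.7%) of 55 without it (median -0.14), against 17.4% and 19.9% of all tested genes. The shares that rose in the first comparison and that fell in the second were thus close with and without the NRF1 core. With the ETS core, 8 of 17 rose and 2 fell in the first comparison (median 0.24), against 32 and 3 of 55 without it (0.34). In the second, 4 of 17 fell and 0 rose with the ETS core (median -0.20), against 19 and 2 of 55 without it (-0.19). The difference between these sets was not tested, a match describes letters and not binding, and the absence of a match says only that these letters are not in this window.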

How the data were processed

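Per the labels' protocols, 50 ng of total RNA per library entered a Clontech low-input kit. The authors deposited raw read counts per gene for 12 libraries. STAR 2.7.9a, Subread 2.0.1 with featureCounts, MultiQC 1.7 and the build GRCm39 are named in the submitters' processing notes. The sources used here give neither annotation release nor strand setting. Of 53819 entries, 1442 are named by an identifier only (0.0130% to 0.0297% of counts), and they were kept.

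All other values were computed from the deposited counts, with R 4.3.3. Genes passing filterByExpr (15698) were fitted with edgeR 4.0.16 (TMM scaling, robust glmQLFit and glmQLFTest, all 12 libraries, a mean per group, 8 residual degrees of freedom), and p-values were adjusted by Benjamini-Hochberg over all tested genes, with a threshold of 0.05. The code was run on simulated data with a dispersion of 0.05 in every group, for the depletion comparison only. The common dispersion of the real data was 0.0969, so that run does not measure the error rate here. Alternatives were other scalings and filters, DESeq2 1.42.0, fits of only the groups compared, a replicate block and each library left out. Libraries of a group differed beyond sampling noise (chi-square per degree of freedom of at least 15.2). Floors and intervals cover counting error only, and 3 counts correspond to 0.0933 to 0.107 CPM.

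Members and lists were chosen with earlier results of these data known. Named were all mitochondrially encoded members, the isoforms with their counterparts and, per comparison and complex, up to 2 called members that rose most and 2 that fell most among those reaching 5 CPM in the higher group, or the most abundant where none was called, with the same rule for each list. Outside this rule, Ndufs1, Ndufs4, Uqcrc1, Uqcrc2, Uqcrh, Atp5a1, Atp5b, mt-Rnr1 and mt-Tp in the depletion comparison and Atp5l were added after their values were seen. A gene that this rule names is not reported here. Exon overlaps and shared windows come from GENCODE M21 (GRCm38), so they may differ from the annotation used for counting.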

Additional observations from a re-analysis of the deposited data

Results flagged for a closer look

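For 11 members the change with sorting in marrow and the change with depletion in bone differed in a direct test of that difference (edgeR's quasi-likelihood test, adjusted over all tested genes, of which 5.08% were called above and 2.99% below). Among mitochondrially encoded genes, the sorting change minus the depletion change was -1.25 for mt-Nd1, -1.72 for mt-Nd2, -1.26 for mt-Nd4, -1.05 for mt-Nd5, -1.02 for mt-Nd6 and -1.27 for mt-Cytb on the log2 scale. Each of these 6 genes was higher in all 3 BAC depleted libraries than in any BAC nondepleted library, as were 21.4% of all tested genes. The same libraries entered the direct test, so this describes the called genes and is not separate support. Among nuclear-encoded members, 5 of 87 or 5.75% were called above, near the share of all tested genes, which is no result about the members. The values were 0.47 for Ndufa10, 0.50 for Ndufb5, 0.59 for Cox4i1, 0.70 for Uqcrfs1 and 0.76 for Atp5g2. Each of these 5 genes was lower in all 3 BAC depleted libraries than in any BAC nondepleted library, as were 24.9% of all tested genes. This too comes from libraries that entered the direct test.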

How the results depend on the processing

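For BM sorted against BM nonsorted, the nuclear-encoded members that fell numbered 0 with a filter of 1 CPM or with only the groups compared (1 in the main analysis), and 0 to 1 with libraries left out; mitochondrially encoded members that fell numbered 2 by DESeq2 and 2 with only the groups compared (0 in the main analysis). For BAC depleted against BAC nondepleted, nuclear-encoded members that rose numbered 4 under upper quartile scaling, which moved the median of all genes to 0.13 and that of these members to -0.13, and 2 to 3 with libraries left out; those that fell numbered 11 with only the groups compared and 16 to 30 with libraries left out; mitochondrially encoded members that rose numbered 6 to 7. For BM sorted against BAC depleted, nuclear-encoded members that rose numbered 31 with only the groups compared and 34 to 49 with libraries left out; those that fell numbered 3 without a count filter, 2 with only the groups compared and 2 to 9 with libraries left out. For BM nonsorted against BAC nondepleted, those that rose numbered 17 under upper quartile scaling, 4 without a filter, 23 with only the groups compared and 3 to 18 with libraries left out; those that fell numbered 5 without a filter and 3 to 11 with libraries left out; mitochondrially encoded members that fell numbered 1 by DESeq2. For the sorting change minus the depletion change, nuclear-encoded members above numbered 8 under upper quartile scaling, 15 by DESeq2, 2 without a filter and 0 to 8 with libraries left out; those below numbered 2 by DESeq2 and 0 to 1 with libraries left out; mitochondrially encoded members below numbered 2 to 6. Apart from the numbers of samples and genes that define each alternative, the cause was not tested.

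The log2 ratio of mitochondrially to nuclear-encoded counts ranged, with libraries left out, over -0.32 to -0.09 (BM sorted minus BM nonsorted), 1.04 to 1.23 (BAC depleted minus BAC nondepleted), -1.49 to -1.29 (BM sorted minus BAC depleted), -0.17 to 0.06 (BM nonsorted minus BAC nondepleted) and -1.47 to -1.22 (sorting change minus depletion change). The last was -1.56 without mt-Co1 and mt-Nd4, an alternative chosen after seeing the data. Leaving libraries out of the count ratios of Cox7a1 and Cox6a2 was likewise chosen after seeing the data. With the replicate number as a block, 0 nuclear-encoded members were above and 3 mitochondrially encoded members below in the sorting change minus the depletion change; the other counts stayed within 1.5 times. Same-numbered libraries correlated at -0.223 to 0.237 over 18 pairs, so the numbers were not taken to pair the samples. For 150 pairs of a named gene and a comparison, 2966 alternatives were computed: 2727 kept direction and side of the threshold, 201 lost a call, 38 gained one and 0 reversed. With 3 libraries a group, small changes of low genes could not be resolved.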
